A study of Mus musculus with 4 samples.

Results

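Of the 12236 peaks at which MOV10 was bound to RNA in mouse N2A cells, 274 (2.24%) had their midpoint in no annotated gene span. These intergenic peaks were chosen by position alone, as the peaks whose midpoint lies in none of the 49993 gene spans of the RefSeq annotation of GRCm38.p6, whatever the strand of the gene. They fell into 49 loci, and 258 of the peaks (94.2%) lay within 10 kb past the 3′ end of a gene read from the same strand. This grouping was chosen after the positions had been seen, and the share of bases in such a position was not computed. Of all bases outside spans, 31.3% lie within 10 kb of a span on either side. The genes that end before these 258 peaks numbered 34, among them Ago2, Zfp652, Abhd2, Sv2c and Ankrd52. Of the 34, 15 also had peaks inside the span, and 19 had peaks past the end of the annotation but none inside it. A span without a peak was the usual state, since 8.53% of all coding genes held one.

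N2A is a mouse neuroblastoma cell line, and all libraries came from it grown in standard medium with no other treatment named in the labels. In eCLIP, ultraviolet light fixes proteins to the RNA they touch, the protein is captured with an antibody, here against MOV10, and the attached RNA fragments are sequenced beside a sample of the lysate that was not captured. The series has 4 libraries, 2 captured with the antibody and 2 inputs, and whether the replicates were separate cultures is not stated. The deposited list carries for each peak 1 log2 fold enrichment over input and 1 −log10 p, both the authors' and both combining the libraries, so no spread between replicates can be given for any value below and none of the differences was tested.

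MOV10 is an RNA helicase that moves along RNA from 5′ to 3′ and works beside Argonaute proteins, which microRNAs guide to target sites, mostly in the 3′ untranslated regions of messenger RNAs. A gene span runs from the first to the last base that an annotation assigns to any transcript of the gene. Where cleavage and polyadenylation take place at a site downstream of the annotated one, the transcript carries sequence beyond the span, and long 3′ untranslated regions made in this way are known from neurons and neuronal cell lines. The peaks do not show which transcript the bound RNA belonged to, and how far transcripts extended past the annotated ends was not measured.

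The sequence of the peaks themselves was not used here, since no genome of the build was at hand. The reference held sequence for 1 gene in the midst of these peaks, the microRNA gene Mir7652, which lies past the 3′ end of G3bp1 on the same strand and is the nearest annotated gene to 7 of the 274 peaks. Its mature forms are shown from RefSeq (GRCm38.p6), 5′ to 3′, with the seed (bases 2 to 8) in capitals, because the peaks stand on both sides of them.
mmu-miR-7652-5p: uAAGGGCAcagggauuucaggc
mmu-miR-7652-3p: uCUGGCUUuccuguggcuucu
The 5p form covers chr11:55501226-55501247 and the 3p form chr11:55501261-55501281, plus strand. The intergenic peak before them ends 233 nt upstream of the 5p form and the one after them begins 703 nt downstream of the 3p form. The 2 forms have different seeds. Of the 274 peaks, 0 touched any of the 1005 microRNA hairpins and 0 touched any of the 32851 promoter windows in the reference tables. MicroRNA genes are themselves gene spans, and only 3 of the 274 peaks had any base inside a span. The count for hairpins was therefore nearly fixed by the choice of peaks. Neither count was set beside that of all peaks.

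The intergenic peaks stayed close to genes. The median distance from a peak's midpoint to the nearest span on either strand was 2152.5 nt, the interquartile range was 863 to 3390 nt, and the farthest peak lay 9854.5 nt away. Within 1 kb of a span there were 78 peaks (28.5%), within 5 kb 250 (91.2%) and within 10 kb all 274. Bases outside gene spans make up 52.5% of the chromosome stretches between the first and the last gene, and of those bases 19.0% lie within 5 kb of a span and 31.3% within 10 kb. The nearest gene was protein-coding for 248 peaks, a long non-coding RNA gene for 18, a microRNA gene for 7 and a small nuclear RNA gene for 1.

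Peaks lay past the 3′ ends of these genes, and on their strand. The direction of the nearest gene was known for 253 peaks, and 238 of them (94.1%) were on its 3′ side. On that side 222 had the strand of the gene and 16 the opposite strand. The direction came from the reference for 224 of the 253 peaks. For the other 29 it was taken from the strand of the peaks inside the gene. All 29 were counted on the 3′ side and on the gene's strand, so their agreement rests in part on the peak list itself. On the 5′ side there were 15 peaks, all on the strand of the gene and 0 on the opposite strand. Neighbouring peaks weigh heavily in these counts. Those on the 5′ side lay only next to Gm38957, Ctnnal1 and Ano7, and most of the 16 lay in the locus between Ankrd52 and Slc39a5. With the strongest peak of each locus alone, 41 of 43 (95.3%) were on the 3′ side. All 15 on the 5′ side, and 15 of the 16 on the opposite strand, also lay within 10 kb past the end of another gene of their own strand. From here on, peaks were therefore grouped by the nearest coding or long non-coding RNA gene of their own strand that ends before them. This rule, which leaves other classes such as the microRNA gene Mir7652 aside, was chosen after the positions had been seen. It took in 258 peaks and 34 genes, 33 coding and 1 a long non-coding RNA gene. For 4 of them, Ago2, BC005537, Ubxn2b and Rnf11, the direction was taken from the strand of the peaks inside the gene.

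**Figure D1:**
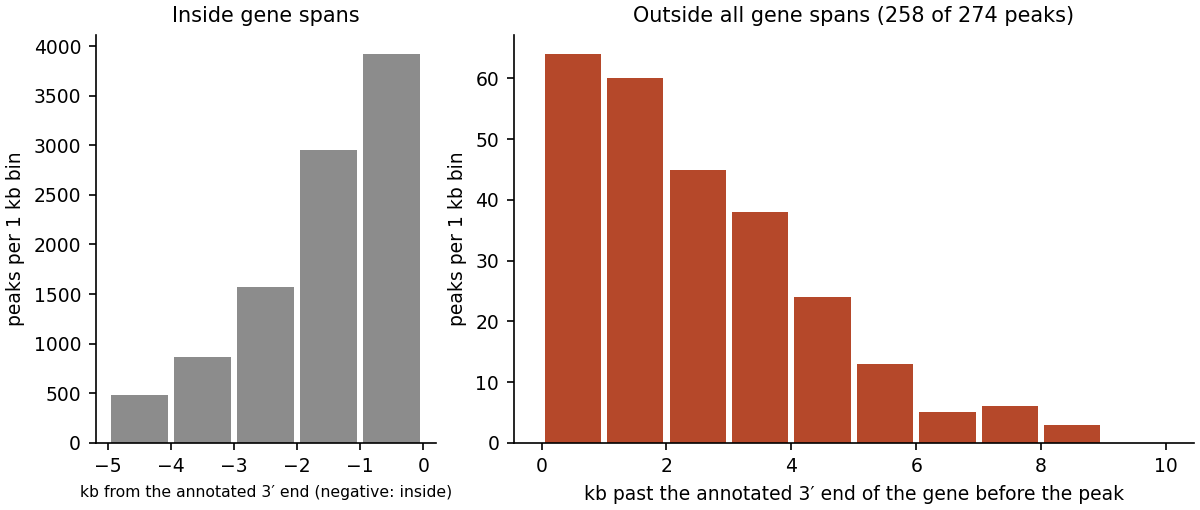
Number of peaks in 1 kb bins on both sides of the annotated 3′ end of genes of the same strand. On the left are peaks inside the span of a single gene, rising to 3918 in the last kb, and on the right the 258 intergenic peaks, falling from 64 in the first kb to 3 between 8 and 9 kb. The vertical axes differ.

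The number of intergenic peaks fell with distance from the annotated end. There were 64 in the first kb past it, in 25 genes, then 60, 45, 38 and 24 in the following 4 kb. The number of genes holding these peaks fell as well, to 19, 14, 12 and 9. Beyond 5 kb lay 27 peaks. Inside the spans, the last kb held 3918 peaks of 1213 genes. These counts are not on the same footing, since a peak past an end that fell in a neighbouring gene was not intergenic and is missing from the outer side. That loss can only grow with distance, and each peak was assigned to the nearest end before it. Part of the fall with distance is therefore built into the rule, and how much was not determined. The first intergenic peak of a gene lay at a median of 508 nt past its end, and the outermost base covered lay at a median of 2139 nt. In 6 genes the peaks reached more than 5 kb past the end, namely Tmem245 with 8598 nt, Zfp652 with 7611, Ago2 with 5529, Trim56 with 5266, Rsc1a1 with 5165 and Kpna4 with 5016. The gap from these 34 genes to the next span, microRNA genes left aside, had a median of 10090.5 nt and ranged from 1920 to 62322 nt. In 7 genes the peaks reached across more than 50% of it.

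On the edge of the rule, the 3 intergenic peaks closest to a span had their midpoints 6 nt past Gna12, 26 nt past BC005537 and 35.5 nt past Tbl1x, with log2 fold enrichments of 3.97, 3.15 and 3.37. The 3 assigned peaks closest to an edge from within lay 7.5 nt inside Pcif1, 31.5 nt inside Hmgn1 and 34 nt inside Rny1, with 3.46, 3.02 and 4.54. Only 3 of the 274 peaks had any base inside a span.

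Intergenic peaks were as narrow as the others and were clustered to a similar degree. Their median width was 74 nt (interquartile range 43.3 to 113), against 73.5 nt for the 11962 peaks inside spans. Of the 274, 134 (48.9%) touched another peak, against 54.2% of the peaks inside spans. Peaks of the same strand less than 1 kb apart were counted as 1 locus, and 19 of the 49 loci (38.8%) held a single peak while 8 (16.3%) held 10 or more. By the same measure the peaks inside spans formed 2201 loci, of which 37.6% held 1 peak and 16.6% held 10 or more. The 8 large loci carried 164 of the 274 intergenic peaks (59.9%). The peaks covered 22459 nt in 193 intervals once touching ones were joined. Members were found on 16 of the 20 chromosomes of the list. They were 61 of the 1416 listed peaks on chromosome 11, 37 of them at Zfp652, and 39 of the 919 on chromosome 5. On chromosomes 12, 14, 17 and 18, they were 0 of 220, 256, 316 and 355 listed peaks. The share over the whole list was 2.24%. By strand, 150 were on plus and 124 on minus, while 6143 of all 12236 peaks were on plus.

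The median log2 fold enrichment of the intergenic peaks was 3.93 (15.3-fold), with quartiles of 3.47 and 4.46 and a range of 3.01 to 6.15. Inside spans the median was 3.71 (13.1-fold), and in the last 500 nt of genes, over 1778 peaks, it was 3.68. A log2 fold enrichment of 4 or more was listed for 124 of the 274 (45.3%), against 33.7% of all peaks of the list. Much of the surplus lay in few loci. When each locus counted once, the median stayed above that inside spans, while the share at 4 or more came close to that inside spans. The loci with most peaks were those of Zfp652 (37), Abhd2 (28), Ago2 (20) and Ankrd52 (20). Without these 4, the median of the remaining 169 peaks was 3.70 and the share at 4 or more was 29.0%. Inside spans, where no large loci were left out, the median was 3.71 and the share 33.5%. The trimmed and untrimmed sets are therefore not on the same footing. With Zfp652, Abhd2 and Ago2 left out, the median of 189 peaks was 3.74 and the share 33.3%. With Ankrd52 left out in place of Ago2, they were 3.77 and 36.0%. With the strongest peak of each locus alone, the median was 3.90 over 49 loci, against 3.75 over loci inside spans. The share at 4 or more was then 38.8%, against 36.9% inside spans. The median −log10 p was 9.96, close to the 10.2 inside spans.

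**Figure D2:**
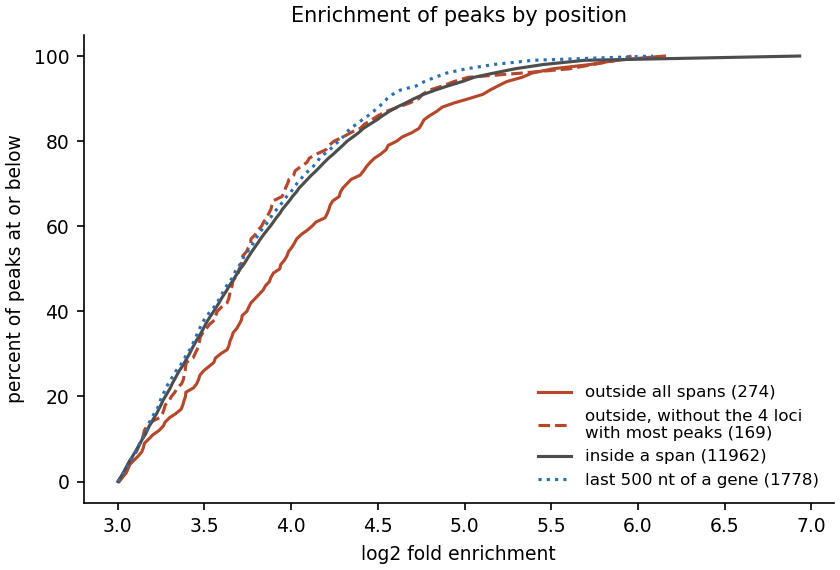
Share of peaks at or below each log2 fold enrichment, for the 274 intergenic peaks (solid red), the 169 left without the 4 loci with most peaks (dashed red), the 11962 peaks inside spans (grey) and the 1778 in the last 500 nt of genes (dotted blue). The solid red line lies to the right of the others over most of the range, with medians of 3.93 and 3.71 outside and inside, and the dashed line, with a median of 3.70, runs near the grey one.

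Among the 34 genes, 15 also had peaks inside their span, 138 in all, and these genes held 176 of the intergenic peaks. In 6 of the 15 the peaks past the end outnumbered those inside, in 7 they were fewer and in 2 the numbers were equal. The median log2 fold enrichment past the end was above that inside in 11 of the 15 genes and below it in 4, with a median difference of 0.24. The strongest peak past the end exceeded the strongest inside in 9 of the 15. Peaks of a gene share a transcript or its neighbourhood and are not replicates, and in several of these genes 1 side is represented by a single peak.

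**Figure D3:**
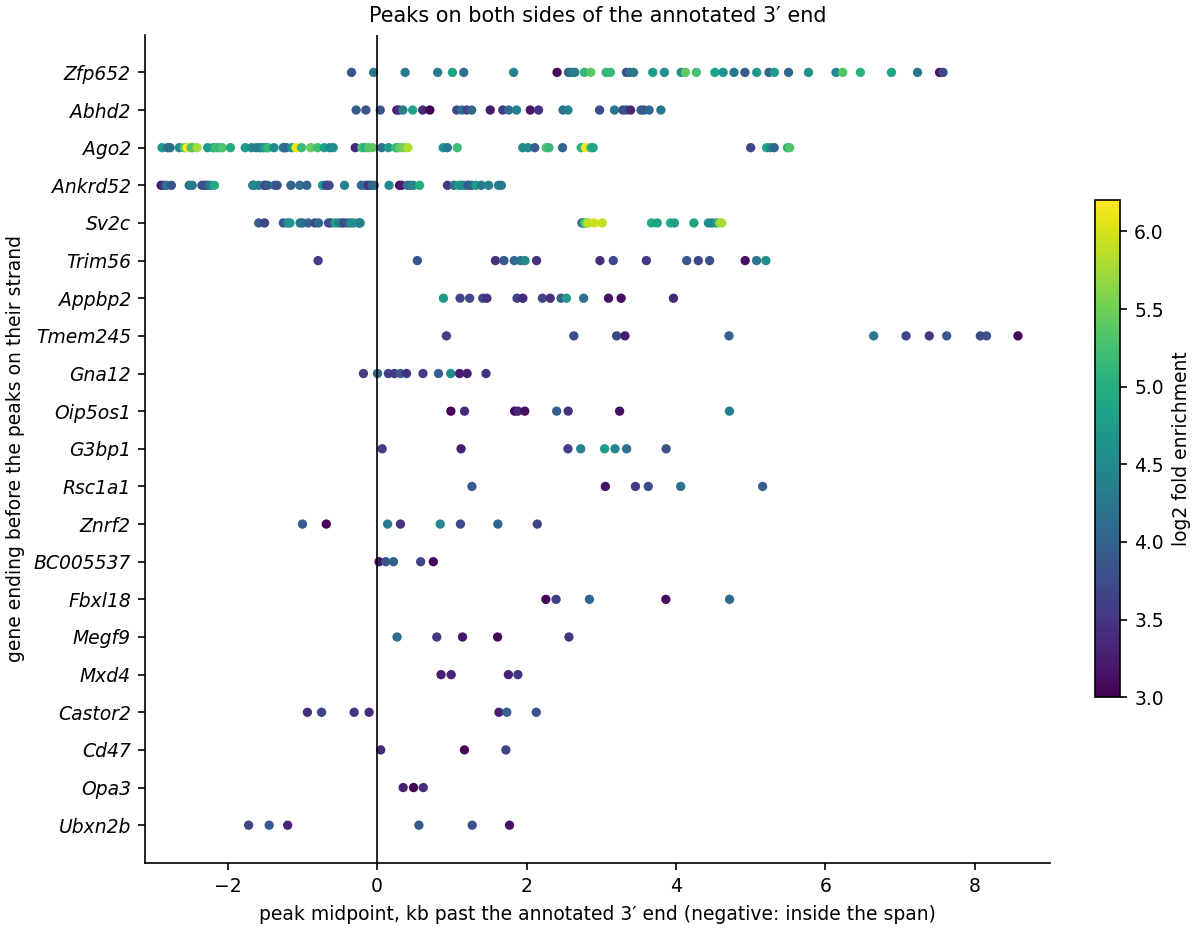
Position of each peak around the annotated 3′ end (vertical line at 0) in the genes with 3 or more intergenic peaks, in kb along the horizontal axis and coloured by log2 fold enrichment, with peaks more than 3 kb inside a span not drawn. Peaks of Ago2 and Ankrd52 continue across the end, those of Sv2c resume 2742 nt past it, and Appbp2, Tmem245, Oip5os1 and G3bp1 have peaks on the right side only.

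The strongest intergenic binding followed Ago2, the Argonaute protein with slicing activity and a partner of MOV10. Of its 70 peaks, 44 lay in the span and 26 past the end, from 62 to 5521 nt, with a median log2 fold enrichment of 4.98 past the end and 4.74 inside. The highest value past the end was 6.15 at −log10 p 90.9, at chr15:73098783-73098886, and the highest inside 6.19. The last 6 of them, at chr15:73096096-73096654 with values up to 5.33, were nearer to Chrac1, a histone-fold subunit of a chromatin remodelling complex, than to Ago2, and had the strand of Ago2.

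Sv2c, a synaptic vesicle membrane protein, combined strong binding with a break at the annotated end. Its 22 peaks inside the span lay 227 to 1584 nt before the end and had a median log2 fold enrichment of 4.22 and a highest of 4.86. No peak was listed from there to 2742 nt past the end, where 17 peaks began, at chr13:95954813-95956711 on the minus strand. Their median was 4.94 and their highest 5.96, at chr13:95956520-95956547, 2909.5 nt past the end. Near the far edge of the locus, 3 peaks at 4434.5 to 4541 nt stood at the highest −log10 p of the list, 400, with log2 fold enrichments of 4.63, 4.42 and 4.76. The outermost 2 peaks rose again to 5.63 and 5.80. The values inside the span and past the end overlapped, since the lowest past the end was 3.77.

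Ankrd52, a regulatory subunit of protein phosphatase 6, had binding close to the end on both sides. Its 35 peaks inside the span came to within 36 nt of the end, and the first of 20 peaks past it lay 160.5 nt beyond. The 20 peaks lay within chr10:128394150-128395694, covering 874 of its 1545 nt, with a median of 4.29 against 4.02 inside, and a highest of 4.98 at 569 nt past the end. A peak 1030 nt past the end, with 4.16, was the only other intergenic peak at a −log10 p of 400. The outermost base of the peaks lay at 87.9% of the gap to Slc39a5, a zinc transporter gene that runs towards Ankrd52 from the other side. The outer 12 peaks were nearer to the end of Slc39a5 than to that of Ankrd52, but had the strand of Ankrd52.

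Zfp652, a zinc finger protein of transcriptional repression, had the largest number of intergenic peaks. Inside its span of 15649 nt it held only 3 peaks, up to 4.27, while 37 followed the end, from 375.5 to 7574.5 nt. The 37 peaks, at chr11:95765044-95772326, had a median of 4.48 and a range of 3.06 to 5.40, and 31 of them had 4 or more. The strongest lay 4126 nt past the end, at chr11:95768806-95768876, and a peak 6232 nt past the end still had 5.33. The peaks were spread along the whole stretch with no gap of 1 kb, and the 7 outermost were nearer to Gm38957, a long non-coding RNA gene that begins downstream on the same strand.

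Abhd2, an enzyme that hydrolyses lipid esters, showed the same imbalance at lower values. It held 2 peaks inside its span, at most 280 nt from the end, and 28 past it, at chr7:79361617-79365425. The peaks past the end had a median of 3.83 and those inside 3.89. The strongest, 4.81 at −log10 p 25.9, lay 476.5 nt past the end, and the outermost, 3798 nt past it, had 4.24.

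**Figure D4:**
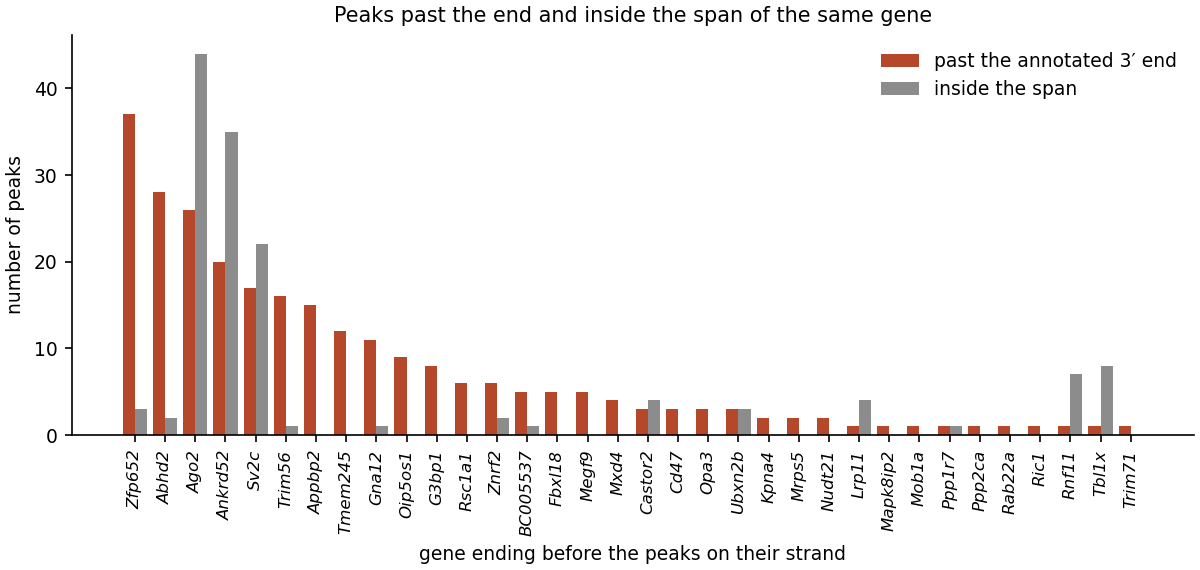
Number of peaks past the annotated 3′ end (red) and inside the span (grey) of each of the 34 genes, ordered by the first. Zfp652, with 37 against 3, and Abhd2, with 28 against 2, have most of their peaks past the end, while Ago2, with 26 against 44, and Ankrd52, with 20 against 35, have more inside.

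Several genes with 1 or 2 peaks inside their span had many more past it. Trim56, a ubiquitin ligase of antiviral signalling, had 1 inside, at 3.56, and 16 past the end, from 539 to 5203.5 nt, of which the outermost was the strongest, at 4.55. Gna12, a G protein α subunit, had 1 inside, at 3.56, and 11 past the end within 1457.5 nt, with a highest value of 4.55 at 985.5 nt. Znrf2, a membrane-bound ubiquitin ligase, had 2 inside and 6 past the end, up to 4.46. BC005537 had 1 inside, 7009 nt before the end, and 5 past it within 753 nt, up to 4.00. In Castor2, of the arginine sensor family of the mTOR pathway, 3 peaks past the end stood beside 4 inside, and in Ubxn2b 3 beside 3.

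In 19 genes the only peaks were those past the end, 82 peaks in all. Among the 21896 coding genes of the annotation, 8.53% had a peak in their span, against 15 of the 34 genes here. The lack of a peak inside is therefore the usual state of a gene. These 19 genes had a median of 3 peaks past the end, and their strongest peak had a median log2 fold enrichment of 3.76. In the 15 genes with peaks on both sides these medians were 6 peaks and 4.46. A highest value tends to rise with the number of peaks it is taken from, so 3.76 and 4.46 do not compare strength alone. Appbp2, a substrate adaptor that binds the amyloid precursor protein, led the 19 genes with 15 peaks. These peaks lay at chr11:85187317-85190459, from 888 to 3966.5 nt past the end. Their values ran from 3.11 to 4.73 with a median of 3.66. The peak nearest to the gene was listed highest, but its −log10 p was only 5.91, and a peak 2534 nt past the end had the same value to 2 decimals at −log10 p 12.4.

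Tmem245, a membrane protein gene that hosts a microRNA, had 12 peaks in 4 separate loci, from 928 to 8576.5 nt past its end. The strongest, 4.28 at −log10 p 33.5 (chr4:56869246-56869468), was 6646 nt from Tmem245. The 7 outermost peaks were nearer to the 5′ end of Ctnnal1, an α-catenin relative, which lies downstream on the same strand, and came no closer to it than 2051.5 nt.

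Oip5os1, the long non-coding RNA also known as Cyrano, was the only non-coding gene among the 34. Of non-coding genes, the grouping rule admitted only those of long RNAs. Cyrano is known for a site of extensive pairing to miR-7, through which it brings about the decay of that microRNA in brain. Its span of 6451 nt held no peak, and 9 peaks followed its end, from 987.5 to 4715.5 nt on the plus strand of chromosome 2. Of these, 8 had values of 3.06 to 3.98, and the outermost, at chr2:119605394-119605529, had 4.39 at −log10 p 11.2. That peak was nearer to the 3′ end of Oip5, a centromere protein gene on the opposite strand. Whether the 9 peaks include the miR-7 site was not determined.

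G3bp1, which nucleates stress granules, had 0 peaks inside its span and 8 past its end, those around Mir7652. The first 2, at 68.5 and 1124 nt, had 3.56 and 3.29. The next 6, at chr11:55503396-55504788, had a median of 4.30 and reached 4.75 at chr11:55503895-55503971, 3045 nt past the end of G3bp1. Of the 8 peaks, the 6 outermost held all values above 3.56, while the 2 that flank the microRNA most closely held the lowest.

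The other genes without peaks in their span had fewer. Rsc1a1, a regulator of solute transporters with a short span of 2154 nt, had 6 peaks between 1269.5 and 5159.5 nt past its end, up to 4.21. Fbxl18, an F-box adaptor of ubiquitin ligases, and Megf9, a membrane protein, had 5 each, with highest values of 4.09 at 2842 nt and 4.11 at 267.5 nt. Mxd4, which opposes Myc, had 4, none above 3.48. Cd47, the surface signal that restrains phagocytosis and whose messenger RNA is known for alternative 3′ untranslated regions, had 3, up to 3.63 at 1723.5 nt. Opa3, a mitochondrial protein gene, also had 3, up to 3.44, which touched each other and formed 1 interval of 400 nt. Nudt21, a subunit of the cleavage factor that governs the choice of polyadenylation site, had 2 touching peaks 842 and 1012.5 nt past its end, at 4.02 and 3.39. The importin gene Kpna4 and the mitochondrial ribosomal protein gene Mrps5 had 2 peaks each, up to 3.74 and 3.77.

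Single peaks past the end were found in 10 genes. Of these, 4 also had peaks inside. The peak of Rnf11, a small ubiquitin ligase, 117.5 nt past the end at 3.82, was above the median of 3.18 of its 7 peaks inside. Tbl1x, a corepressor exchange factor, had 3.37 past the end beside 8 peaks inside with a median of 3.39, and Lrp11 3.15 beside 4 with 3.28. Ppp1r7, a phosphatase regulator, had 3.39 at 3246.5 nt past its end and 3.41 at its 1 peak inside, and its intergenic peak was nearer to the 5′ side of Ano7, a gene of the anoctamin family downstream on the same strand. The 6 with no peak inside were Mapk8ip2, a scaffold of the JNK pathway (3.76), the small GTPase gene Rab22a (3.70), Ppp2ca, the catalytic subunit of protein phosphatase 2A (3.39), Mob1a, a cofactor of the Hippo pathway (3.38), Ric1, a subunit of a Rab exchange factor (3.12), and Trim71 (3.02).

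Trim71, the LIN-41 protein that let-7 represses, and Ago2 were the 2 genes next to intergenic peaks from a list of 18 genes of microRNA silencing, of which 6 had a peak inside the span. The Trim71 peak, at chr9:114511087-114511248, had its midpoint 100.5 nt past the end. In the whole annotation, 45 of 49993 gene spans of every class (0.0900%) were the nearest to an intergenic peak. A peak was held by 3.92% of all spans and 8.53% of coding spans. Lists of this size would hold few or no nearest genes at a rate of 0.0900%, but that rate was not computed for coding genes alone. Of 29 genes of the CCR4-NOT complex, decapping and P-bodies, 11 had peaks inside their span and 0 were next to an intergenic peak. The same held for 20 RNA-binding protein genes with long 3′ untranslated regions (7 with peaks inside), 9 genes of the neuronal cytoskeleton (5) and 7 genes of small RNAs transcribed by RNA polymerase III (2), each with 0 next to an intergenic peak. At that background, the counts of 0 tell nothing about these groups. These lists were written with earlier results of these data known, so the 2 of 18 cannot be read as an enrichment either.

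The remaining 16 peaks, in 6 loci, had no coding or long non-coding RNA gene known to run on their strand within 10 kb before them. For 15 of the 16 the direction of the nearest gene was not in the tables. Of those described here, Dusp19, a dual-specificity phosphatase gene, had 1 peak 1175 nt from its span (3.96), and Dppa3, a germ cell and early embryo factor gene, had 2 peaks 2798 and 2828 nt away (3.71 and 3.89). A peak of 3.86 lay 283.5 nt past the 3′ end of the long non-coding RNA gene Gm31852 on the opposite strand. A further peak, of 3.30 at −log10 p 3.19, lay 6139 nt from a small nuclear RNA gene, LOC115487637. The nearest coding or long non-coding RNA gene known to run on that peak's strand and end before it was 95353 nt away. Near the long non-coding RNA gene 9630025h16rik, 2 more peaks lay opposite to its strand, and these were the 2 assigned to Kpna4.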

How the data were processed

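MOV10 eCLIP and input libraries of N2A cells had been combined by the authors into 1 peak list, named for an irreproducible discovery rate step. The list has no header. Its values were read as the authors' −log10 p and the authors' deposited log2 fold enrichment, from their ranges and the usual column order of eCLIP lists, and were used only to describe and rank peaks. Aligner, peak caller, thresholds and library depths were not stated in the labels or the list. The submitters' processing notes name the builds mm10 and GRCm38.p6. Coordinates count from 1.

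Gene spans came from RefSeq GRCm38.p6. Directions came from its promoter and microRNA tables (28096 of 49993 genes) or, failing that, from the strand of peaks inside the gene. Of 8777 peaks alone in a gene with a tabulated direction, 8764 had its strand. Annotation steps (Python 3.11.15, pandas 2.3.3) were checked on placed peaks. No test between samples was possible. Text names the 12 strongest loci, the 10 largest, the 8 farthest, those at the highest −log10 p, those on another side or strand, and listed genes. Other genes past whose ends peaks lay were named after their values were seen. Members and lists were chosen with earlier results of these data known. Results for 1 gene that the naming rule takes in are not reported here.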

Additional observations from a re-analysis of the deposited data

How the results depend on the processing

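Counts of peaks (193 to 298) stayed within 1.5 times of 274 under each alternative tried. The 49 loci became 193 when only touching peaks were joined. The share of peaks within 5 kb of a gene, 91.2%, was 87.2% for coding genes alone, and other windows gave 28.5% (1 kb) and 100% (10 kb). The share past the 3′ end of the nearest gene, 94.1%, became 96.8% for the nearest coding gene. The share whose nearest gene held peaks, 54.7%, was 28.6% with 1 peak per locus. It was 68.2% for the coding or long non-coding RNA gene before the peak on its strand. With 1 peak per locus, 38.8% of peaks had a log2 fold enrichment of 4 or more (36.9% inside spans) and the median width was 0.108 kb against 0.074 kb (0.097 and 0.0735 kb inside). With −log10 p of at least 5, the median log2 fold enrichment was 4.03 (3.79 inside) and the share at 4 or more 51.7% (37.7% inside). Without the 3 loci with most peaks (Zfp652, Abhd2, Ago2), the median, the share at 4 or more and the share whose nearest gene held peaks were 3.74, 33.3% and 38.1%. With Ankrd52, which ties with Ago2, left out in its place they were 3.77, 36.0% and 44.4%, and without all 4 they were 3.70, 29.0% and 37.9%. The settings of own-strand genes and of left-out loci were chosen after seeing the data. The other shares and medians stayed within the 95% intervals of the reported ones (exact binomial, or order statistics), which treat peaks as independent, and other locus counts (39 to 47) within 1.5 times. No paired analysis was possible because each peak has 1 value over all libraries, and no replicate could be left out.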
